A study of Mus musculus with 16 samples.

Results

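Apob, the gene of apolipoprotein B, has 3 of the 622 sites that the authors listed as differentially methylated (DM) for N6-methyladenosine (m6A) between livers of Mettl14 knockout and wild type mice. They are the rows of the deposited table that carry the name Apob, and were therefore chosen by name from sites selected on a measured difference between the genotypes. The study profiled livers of 4 wild type mice (Albumin-Cre;Mettl14+/+) and 4 mice in which Mettl14, a subunit of the m6A methyltransferase complex, was deleted through a floxed allele with Cre under the albumin promoter, which is active in hepatocytes. Mice of both genotypes carried Cre and had been fed a 42% high-fat diet for 3 months, and their age is not given in the sources used here. Each mouse gave an INPUT library of mRNA fragments and a library of the fragments pulled down with an antibody against m6A, 16 libraries in all. The table holds positions and, for each site, the authors' own estimate and p value of the genotype effect. Those estimates are not given here, so the sites are described by place and sequence and not as gained or lost. No value per mouse is analysed here, so that the depth behind each site and the spread between mice are unknown, and the liver identity of the samples could not be checked against marker genes.

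Apolipoprotein B is the very large structural protein of the lipoprotein particles in which liver and intestine export triglyceride and cholesterol. Its mRNA is known for C-to-U editing, in which the enzyme Apobec1 turns a glutamine codon in the long exon 26 into a stop codon, so that edited mRNA encodes a short form of the protein. In mice the liver edits this mRNA too. m6A is added to mRNA mostly at adenosines within the consensus RRACH (R is A or G, H is A, C or T), and is known to be frequent near stop codons and in long internal exons.

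The sequences of the 3 sites are shown because they can be compared directly with this consensus. They were read 5′ to 3′ on the transcript strand (plus strand) of GRCm38, the assembly that mm10 names, and capitals mark RRACH matches. Site 1 is chr12:8007799-8007848, site 2 is chr12:8008298-8008347 and site 3 is chr12:8010740-8010789.
site 1: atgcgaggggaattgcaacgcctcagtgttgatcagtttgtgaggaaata
site 2: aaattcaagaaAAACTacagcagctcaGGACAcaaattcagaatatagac
site 3: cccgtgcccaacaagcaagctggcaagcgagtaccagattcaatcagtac
Each site is 50 nt long, the width of a bin in the authors' count, and each lies in 1 exon block. No site of Apob was therefore merged from adjacent bins. Nearly all listed sites are alike in this, with 616 of 622 of 1 bin. The first and the last 25 nt of each site were each found 1 time in the genome over both strands, at the site itself, and no other annotated gene overlaps exon 26 on either strand.

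All 3 sites lie in the coding part of exon 26. In the longest coding transcript of GENCODE M21, which has 13934 nt in 29 exons, exon 26 runs from 8005736 to 8013202 on chromosome 12. It is 7467 nt long and makes up 53.6% of the transcript, while the other exons have a median length of 176 nt. Among 166659 internal exons of the longest coding transcripts of all genes, with a median of 124 nt, it ranks at number 13 by length. The 5′UTR of 131 nt, the 3′UTR of 288 nt and the other 28 exons hold none of the listed Apob sites.
Site 1 lies at 2064 to 2113 nt of exon 26 and covers codons 2094 to 2110 of the 4505 codons. Site 2 lies at 2563 to 2612 nt of the exon and covers codons 2260 to 2276. Site 3 lies at 5005 to 5054 nt of the exon and covers codons 3074 to 3090. The midpoints stand at 28%, 34.6% and 67.3% of the exon, so that the outer parts of the exon on either side hold no listed site.

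**Figure D1:**
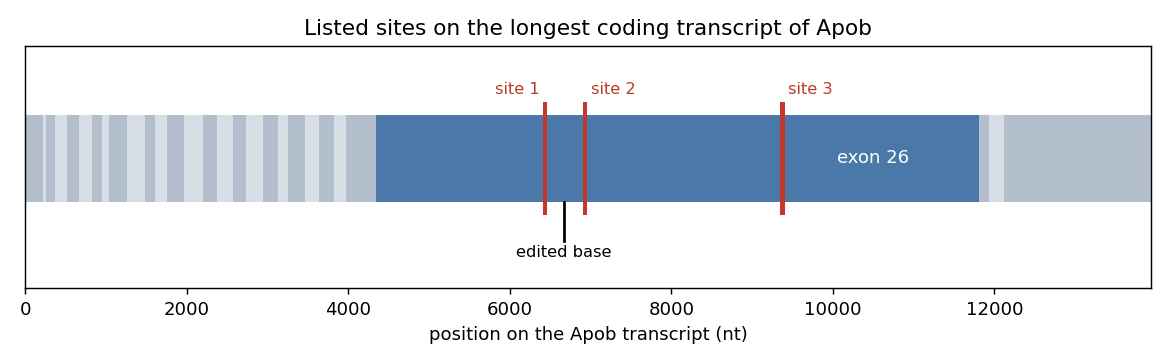
The bar shows the longest coding transcript of Apob from 5′ to 3′ (x axis, position in nt), with exon 26 in blue, the other exons in alternating greys, the 3 listed sites in red and the base edited by Apobec1 as a black tick. Exon 26 covers 53.6% of the 13934 nt, and the edited base falls between sites 1 and 2.

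The sites are unevenly spaced. The midpoints of sites 1 and 2 are 499 nt apart, and those of sites 2 and 3 are 2442 nt apart, with 449 and 2392 nt of transcript between their edges. Together the 3 sites span 39.4% of exon 26 from the start of site 1 to that of site 3. In codons, the starts are 166 and 814 apart.
The edited base lies between sites 1 and 2. It is the first base of codon 2179, at position 8008054 of chromosome 12 and 2319 nt into exon 26. The surrounding sequence is given so that its distance from the sites can be followed, with the edited codon in capitals.
edited codon, chr12:8008042-8008080: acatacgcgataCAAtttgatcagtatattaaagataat
The midpoint of site 1 lies 230 nt before the edited base, and the midpoint of site 2 lies 268 nt after it. Site 1 thus falls in the 2178 codons, 48.3% of all, that are translated from edited and unedited mRNA alike. Sites 2 and 3 fall beyond the edited codon, in the part that only unedited mRNA translates, with site 3 at 2710 nt after the edited base. Whether the pulled-down fragments came from edited or unedited mRNA was not tested.

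RRACH was found in 1 of the 3 sites. Site 2 holds 2 matches, AAACT at its position 12 and GGACA at its position 28. The central A of AAACT is at 8008311 in codon 2264. The central A of GGACA is at 8008327 in codon 2270, and lies 4.5 nt from the midpoint of the site. One more match, AGACA, begins at position 47 of site 2 and ends 1 base beyond it. Sites 1 and 3 hold no RRACH, and none when the first base may also be T (DRACH).
These counts stand beside a background in which the motif is common. Of all windows of 50 nt in exon 26, 58.9% hold at least 1 RRACH and 18.3% hold at least 2. In the whole Apob transcript the share is 61.5%, in the longest coding transcripts of all genes 50.3%, and among all 622 listed sites 60.8% (95% Wilson interval 56.9% to 64.5%, for counting error over sites only). A site of 50 nt without RRACH is likewise common in the table, with 243 of 616 or 39.4%. With only 3 sites, no difference in motif share between Apob and the other listed sites could be shown.
The core GGAC, the form of the motif most often reported for m6A, occurs in site 2 only. It is found in 14.7% of windows of exon 26, in 17.2% of windows of all transcripts and in 26.4% of all listed sites. Exon 26 has 132 RRACH matches, or 17.7 per kb, and 2 of the 132 lie wholly inside a listed site. GGAC, counted whatever base follows it, occurs at 25 places in the exon.

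Fragments pulled down by the antibody can be longer than a bin, so 50 nt of transcript on either side were searched too. All 3 sites then hold RRACH, with 2 matches around site 1, 3 around site 2 and 4 around site 3. Around site 1 both are AGACT, with the central A at 8007752 and 8007867. The match nearest to the midpoint of site 1 is 43.5 nt away. Around site 3 the match on the 5′ side is AGACT. On its 3′ side lie AAACT, then AAACA, then GAACA, and the nearest of these matches is 38.5 nt from the midpoint. A match within this range was nearly always present, since 92.3% of all windows of 150 nt in exon 26 hold one, and 91.6% of the 570 listed sites that could be placed on a transcript.
The sites also differ in base composition. Site 1 has 46% G and C, site 2 has 34% and site 3 has 54%, against 41.4% for the whole exon. The median over all listed sites is 52.0%, with quartiles at 44.0% and 60.0%, so that site 2 lies below the lower quartile and sites 1 and 3 between the quartiles. Site 2 is rich in A, with 25 of its 50 bases, while site 1 has 14 and site 3 has 16.

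**Figure D2:**
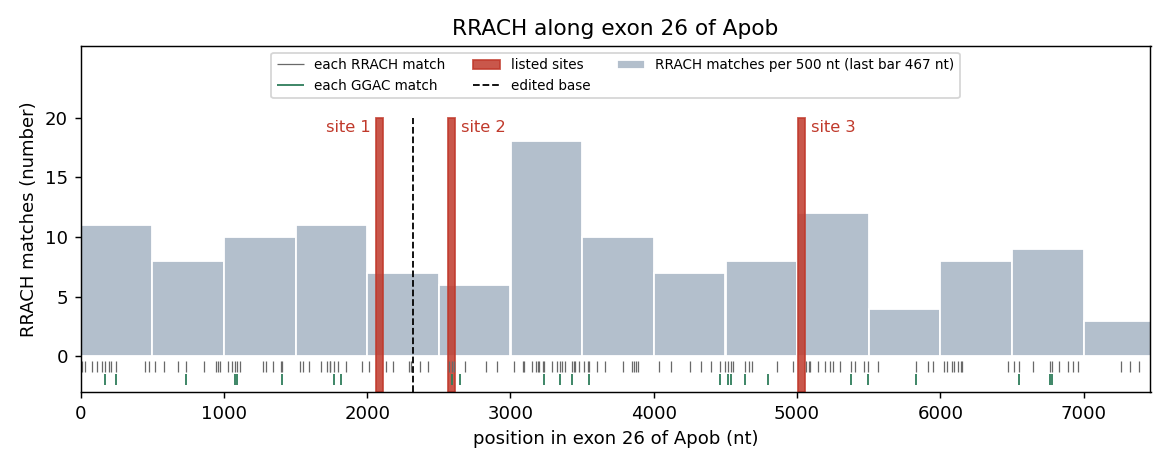
The bars give the number of RRACH matches (y axis) in consecutive stretches of 500 nt along exon 26 of Apob (x axis, nt from the exon start), with each RRACH and GGAC match as a tick under the axis, the 3 listed sites in red and the edited base as a dashed line. The matches run through the whole exon, with 3 to 18 per stretch, and the stretches that hold sites 1, 2 and 3 have 7, 6 and 12.

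The sites were not in the part of exon 26 with the most RRACH. The stretch of 500 nt with the most RRACH, 18 matches from 3001 to 3500 nt of the exon, holds none. Before the edited base the exon has 45 matches, or 19.4 per kb, and after it 87 matches, or 16.9 per kb.

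Compared with the other listed sites, those of Apob stand in a very long exon, far from exon junctions and far from the stop codon of the unedited mRNA. Of the 570 sites that could be placed on the longest coding transcript of their gene, 330 lie in last exons and 159 in internal exons, of which 3 are those of Apob. Exon 26 of Apob is the longest internal exon with a listed site. Internal exons of 400 nt or more hold 90 of the 570 sites, or 15.8% (95% Wilson interval 13% to 19%, counting error over sites only), and make up 10.4% of the length of the transcripts with a site. With a limit of 200 nt the share of sites was 18.6% (15.6% to 22%) and that of the length 16.4%. With a limit of 800 nt they were 10.2% (7.95% to 12.9%) and 7.58%. These shares describe the list, and an excess over length was not tested. The sites were selected on the genotype difference, and sites of the same gene are counted separately. The length also counts bins that may not have been tested by the authors.
Internal exons of 2000 nt or more hold 14 sites, or 2.46%, and make up 2.81% of that length. The 11 outside Apob are 1 each in Srrm2, Ankrd11, Macf1, Zfp644, Atrx, Kmt2d, Pprc1, Scaf1, Chpf2, Mtus1 and Itpkb. Apob is thus the only gene here with more than 1 site in an exon of this length. These exons go down to 2119 nt in Itpkb, and the count is not corrected for their length. Exon 26 is the longest of them at 7467 nt. The exon of Srrm2, which encodes a protein of the spliceosome and nuclear speckles, is the next longest at 6569 nt, followed by that of Ankrd11, a chromatin regulator, at 6518 nt.
From the midpoint to the nearest edge of the exon, site 1 has 2088 nt, site 2 has 2587 nt and site 3 has 2437 nt. The other 156 sites in internal exons have a median of 126 nt, and the highest value among them, 2510 nt for Ankrd11, falls within the range of the Apob sites. Such distances are possible only in long exons, and the median length of the exons of those 156 sites is 534 nt.
In unedited mRNA the last coding base lies 7210 nt beyond the midpoint of site 1, 6711 nt beyond that of site 2 and 4269 nt beyond that of site 3. For all 331 listed sites in a CDS the median distance from the midpoint is 730 nt, and 10 of them are at least as far away as site 3, of which 3 are those of Apob. In edited mRNA the new stop codon lies between sites 1 and 2, and the midpoints of these sites are then 230 and 268 nt from its first base. For site 1, which lies before the new stop codon, this is less than that median. Site 2 then lies after the stop codon and outside the coding part, so its distance cannot be set against a median of sites in a CDS.

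**Figure D3:**
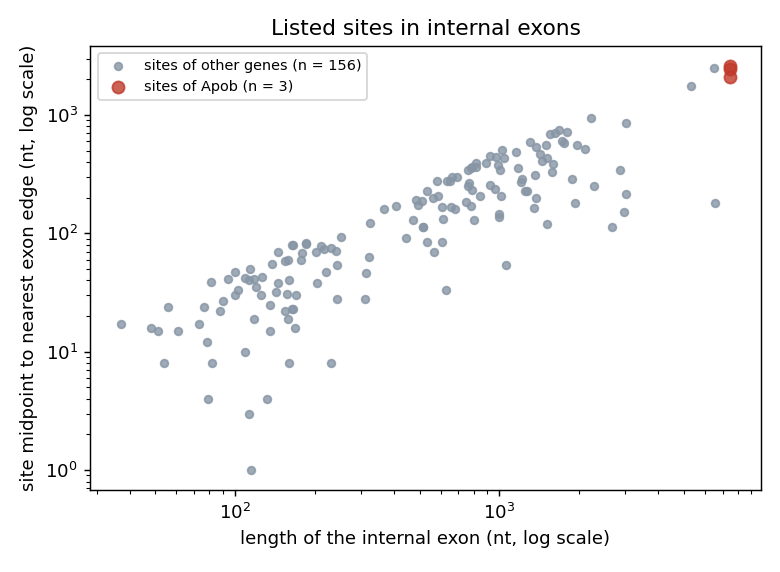
Each point is a listed site in an internal exon, with the length of the exon on the x axis and the distance from the midpoint of the site to the nearest edge of the exon on the y axis (both in nt, on log scales). The 3 sites of Apob (red) share the longest exon at 7467 nt and lie between 2088 and 2587 nt from its edges, while the other 156 sites (grey) have a median of 126 nt.

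Few genes have as many listed sites as Apob. Of the 586 gene names in the table, 555 have 1 site, 27 have 2, 3 have 3 and 1 has 4. Gvin1, an interferon-induced giant GTPase, has 4 sites, and the other names with 3 are Gm4070 and Wtap, which were named after the counts were seen. The 3 sites of Apob share 1 exon and span 2941 nt of the genome. The sites of Wtap, whose protein belongs to the m6A writer complex, span 7682 nt, and only 2 of them could be placed on its longest coding transcript. Those of Gm4070 span 261417 nt and those of Gvin1 264863 nt of chromosome 7, again with 2 placed for each, so these genes could not be compared with Apob exon by exon.
The transcript of Apob is also long. It ranks at number 9 among 571 genes with a listed site that could be matched to the annotation, whose median is 3647 nt, and at number 110 among 21842 coding genes. For its length Apob had 0.215 sites per kb, against a median of 0.282 over the 571 genes, and 188 of them (32.9%) were at or below Apob. These values count every listed site of a gene, also sites not placed on its longest coding transcript. Wtap, for example, has 0.941 per kb from 3 sites, of which 2 were placed. A gene enters this comparison only if it has at least 1 site, which by itself gives short genes a high value per kb and long genes a low one. Of the 8 longer genes with a site, 7 have 1 site and 1 has 2. Over the transcripts of all 21842 coding genes, including genes not expressed in liver, the 570 placed sites come to 0.00803 per kb. Any gene with a listed site exceeds this value, since the lowest among the 571 genes is 0.0426 per kb. That Apob lies above it is therefore no result about Apob. Within exon 26 alone Apob had 0.402 per kb, a value raised by the choice of the exon that holds all 3 sites. No like value for exons of other genes was computed.

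**Figure D4:**
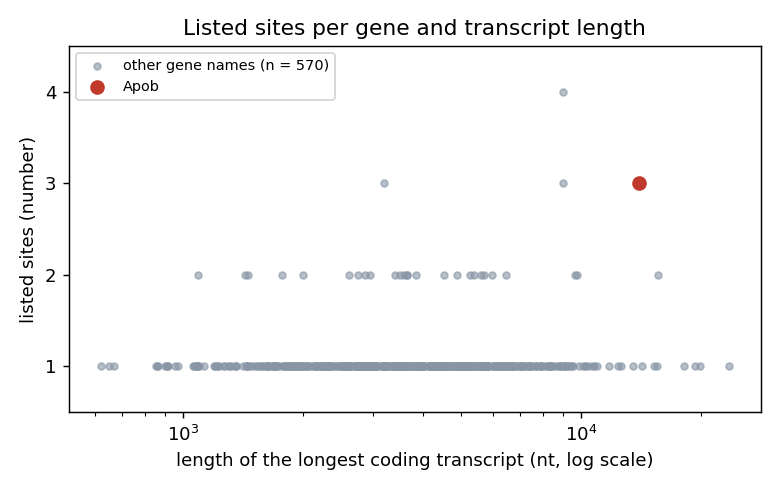
Each point is a gene name with a listed site that could be matched to the annotation, with the length of its longest coding transcript on the x axis (nt, log scale) and its number of listed sites on the y axis. Apob (red) has 3 sites on 13934 nt, and 1 other name has more sites.

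The other genes of the pathway were looked up in the same table. Of all 21842 coding genes, 571 or 2.61% have a listed site in either direction, a share that includes genes not expressed in liver. Of 53 genes of lipoprotein metabolism, 3 have a site (5.66%), with 1 site each.
Of 23 genes for the assembly and secretion of lipoproteins, 1 has a site, Cideb, which encodes a protein of lipid droplets that takes part in the loading of lipid onto very-low-density lipoprotein. Its site lies in the 3′UTR, in exon 5 of 5. Mttp, which encodes the protein that transfers lipid to nascent apolipoprotein B, and the genes of the other apolipoproteins in the list have none. Of 14 genes for receptors, lipases and their inhibitors, Angptl8, which encodes an inhibitor of lipoprotein lipase made by liver and fat, has a site in the CDS of exon 1. Lrp1, which encodes a receptor that takes up lipoprotein remnants from the blood, has none.
Of 4 genes for the editing of Apob mRNA, Apobec1, A1cf and Rbm47 have no listed site. Syncrip, which encodes an RNA-binding protein found with the editing enzyme, has 1 in the 3′UTR, with 2 RRACH matches. Of 12 genes for transcription factors and sterol sensors, such as Srebf1 and Hnf4a, 0 have a site. This count depends on which family members were listed. Nr1h2 and Foxa3, relatives of the listed Nr1h3 and Foxa2, were not in the list and have 1 site each. A gene without a site in the table may have had no bin that could be tested, or no bin that passed, and the table does not tell these apart.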

How the data were processed

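m6A-seq was performed by the authors on livers of 4 wild type and 4 Mettl14 knockout mice. According to the paper's methods, reads were mapped to mm10 with Hisat2, counted in bins of 50 nt on joined exons and adjusted for IP efficiency and for the INPUT count of the gene. After bins with too little IP signal had been dropped, the random effect model of RADAR tested each remaining bin for genotype, and adjoining bins that passed were merged. The versions of Hisat2 and RADAR and the FDR cutoff behind the table are not given in the sources used here. The authors deposited 1 table of that comparison, with the coordinates, name, strand and exon blocks of each site, and with the coefficient and p value of genotype. The last 2 columns are the authors' own comparison and were not used. No column holds a value per mouse. Depth is therefore not known for any library, and genotype was not tested again.

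GRCm38 was indexed with samtools 1.23.1, and site sequences were extracted with pysam 0.24.0. Coordinates count from 1: of 86 inner edges of sites with several blocks, 86 fell on edges of annotated exons under this convention, against 0 under counting from 0. For each gene the longest coding transcript in GENCODE M21 was used. Among the 622 sites, 585 were matched on the gene symbol, 21 on a synonym and 16 not at all, and 570 had a midpoint on that transcript. Motifs were searched on the transcript strand only, with overlapping matches counted. The edited codon was found as the 1 in-frame CAA of the coding sequence followed by TTTGATCAG. Positions and motif counts were checked on simulated transcripts with known answers. Python 3.11.15, NumPy 2.4.6, pandas 2.3.3, SciPy 1.17.1 and matplotlib 3.10.9 were used.

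The member sites and the gene lists were chosen with earlier results of these data known. The genes named are Apob, genes of the lists with a site, genes with more sites than Apob, and genes with a site in an internal exon of 2000 nt or more; other names were chosen after their values were seen. Some genes of the lists are not reported here by name. As the sites had been selected on the genotype difference, no test was run on them. Alternatives covered the motif, the length searched, the transcript, the coordinate convention and the exon length.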

Additional observations from a re-analysis of the deposited data

How the results depend on the processing

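The 3 sites of Apob stayed in the same exon in the next longest coding transcript, where it is numbered 25, and with starts counted from 0. The 2 short coding transcripts of Apob lack that exon, and 0 sites lie in it there. The count of Apob sites with RRACH was 1 with DRACH, with GGAC and with starts counted from 0, and rose to 3 when each site was widened by 50 nt on either side, by the construction of a longer sequence. The share of windows of 50 nt with RRACH, 61.5% in the Apob transcript, was 61.9% in consecutive windows, 58.9% in exon 26 and 73.5% with DRACH. Among all listed sites the share of 60.8% was 59.7% with 1 site per gene name and 69.1% with DRACH. The share of sites in long internal exons, 15.8%, was 18.6% with a limit of 200 nt and 10.2% with a limit of 800 nt. Such exons make up 10.4% of transcript length at the limit of 400 nt, 16.4% at 200 nt and 7.58% at 800 nt. The shares of sites and of length were not tested against each other. The spacing, the sites per kb and the number of genes with more sites than Apob moved by less than 1.5 times. Without values per mouse, no mouse could be left out, no spread could be given, and how deeply each site was sequenced is unknown.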

Other observations

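Site 1 contains the word TGATCAGT at its position 30, which is also found directly downstream of the edited base. In the editing of Apob mRNA, a mooring sequence that begins a few bases after the edited C is known to be needed for recognition by the editing complex, and these 8 bases are its beginning. The word occurs 2 times in the Apob transcript, once 5 nt after the edited base, at 8008059 of chromosome 12, and once in site 1, at 8007828, which is 226 nt before the edited base. Of all windows of 50 nt in the longest coding transcripts, 0.0692% hold the word, and of the 622 listed sites 1 does (0.161%). That 1 is site 1 itself, so the share among listed sites cannot be compared with that of the windows. The word in site 1 is not preceded by the edited codon, and it was searched for only after the sequence of the site had been seen. Whether editing or binding of the editing complex differed between the genotypes was not tested.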
